A study of Mus musculus with 21 samples.

Results

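The 8 EGFR family ligands Areg, Ereg, Epgn, Btc, Hbegf, Tgfa, Egf and Nrg1 were chosen by their gene symbols from the 34478 genes of an RNA-seq table of murine pancreatic ductal adenocarcinoma (PDAC) cells, and all 8 were found. The cells were 6 primary lines, #3, #4, #6, #7, #9 and #10, grown from tumors of mice that all carried the alleles Ptf1awt/Cre and Trp53loxP/loxP. In this model the Ptf1a-driven Cre recombinase deletes Trp53 in pancreatic cells, and every group, parental cells included, came from such tumors. Parental cells (6 samples) had never met the MEK inhibitor (MEKi) trametinib, resistant cells (6 samples) had been brought by rising doses to growth in 100x their IC50 and were kept in the drug, and P5 (3 samples, lines #3, #7 and #9) and P12 (6 samples) were resistant cells passaged without the drug, from 1 batch per line. For P5 of lines #7 and #9, 1 label gives 12 drug-free passages, whereas the sample name gives 5 and is followed here. Each line gave 1 library per state. The lines therefore serve as replicates, and a difference within 1 line has no replicate check. Animal ages are not given in the sources used here.

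These ligands are made as membrane-anchored precursors, and proteases of the ADAM family cut them free. AREG, EPGN, TGFA and EGF bind EGFR, HBEGF, BTC and EREG bind EGFR and ERBB4, and NRG1 binds ERBB3 and ERBB4, while ERBB2 has no ligand of its own and serves as a partner. Active receptors signal through RAS, RAF, MEK and ERK, the pathway that trametinib blocks at MEK, and several of the ligand genes are themselves known to be induced by ERK signalling. In the pancreas, EGFR and its ligands are known for their part in the early steps of tumor formation.

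All values are normalized counts, which are gene-level read counts after the authors' DESeq2 scaling between libraries. The estimated depth was 24.1 to 42.7 M reads (M for mega) per sample, and 3 reads, taken here as the floor of detection for counting error only, stood at 2.31 to 4.07 normalized counts. A gene was called where its log2 fold change was beyond 1 in either direction with an adjusted p under 0.01 (limma, Benjamini-Hochberg adjustment over 19300 tested genes). Log2 values were taken after adding 1, a scale that understates changes of low genes. The epithelial markers of the tumor cells were present in most lines but not alike. Epcam was listed at 0 in all samples except 1 P5 sample, with 3.61, and parental cells of line #9 had 816 normalized counts of the epithelial cadherin gene Cdh1 and 546 of the keratin gene Krt8, against at least 26491 and 73967 in the other parental samples. Krt18 stood at 11364 in parental cells of line #9, against at least 55391 in the other parental samples. Every parental sample had at least 3074 of Krt19 and 673 of Sox9. Over all 6 epithelial markers the summed level was 18221 to 252561 in parental and 1323 to 209869 in resistant cells. The sum of 6 fibroblast markers was 95.4 to 10377 in parental and 1875 to 503969 in resistant cells. Leukocyte markers (4 genes) summed to 136 to 244 in parental and 200 to 2892 in resistant cells, with Cd3e at 0 to 4.60 over both, endothelial markers (3 genes) to 35.2 to 164 and 10.5 to 886, and acinar markers (4 genes) to 43.6 to 279 and 0 to 522, with Cpa1 at 0 in all parental samples. In P12 cells these sums were 3900 to 200931 for epithelial, 224 to 124008 for fibroblast, 183 to 243 for leukocyte, 53.5 to 222 for endothelial and 90.5 to 949 for acinar markers. The highest resistant sums of leukocyte and endothelial markers were mostly Csf1r, at up to 2530, and Kdr, at up to 865. Ptprc was 6.11 to 20.0 in parental and 3.49 to 12.8 in resistant cells, and Cdh5 was at or under 3 reads in all 6 resistant samples. The part of these marker changes in the ligand results was not tested, and in such bulk samples fewer cells of a type and less RNA per cell cannot be told apart.

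Summed over the 8 ligands, RNA was lower in resistant than in parental cells of all 6 lines. Areg was the only ligand called, and it fell by 6.89 on the log2 scale. The estimates for Tgfa, Ereg, Hbegf, Epgn, Nrg1 and Btc were also below 0, and Egf alone had an estimate above 0. With the cell line as a block, Hbegf and Tgfa were called lower too. After drug withdrawal Areg rose again, but the 6 lines parted: in lines #7, #9 and #10 the P12 levels of Areg, Hbegf and Tgfa were at 78.2% of the parental level or more, and in lines #3, #4 and #6 all 3 genes stayed at 25.1% or less. The comparisons share samples (the resistant or the parental cells), so they are not independent of each other.

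**Figure D1:**
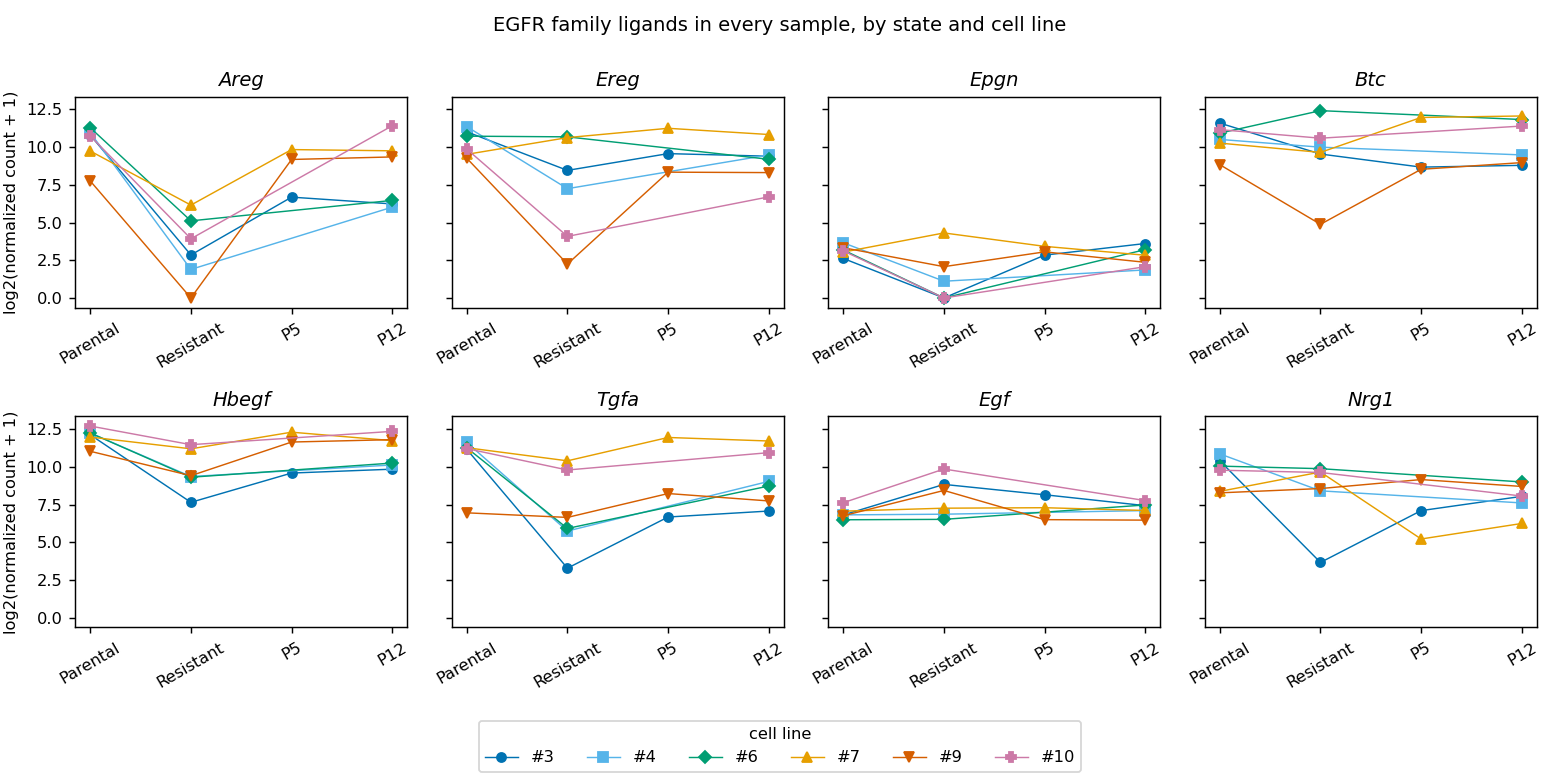
Each panel shows the log2 of the normalized count plus 1 of 1 ligand (y axis) in the 4 states (x axis), with 1 point per sample and a line joining the samples of a cell line. Areg drops in resistant cells of all 6 lines, from 215 to 2492 normalized counts down to 0 to 70.3. Egf, which was not called, is higher in resistant than in parental cells of each line. In lines #4, #6 and #7 it is at only 102% to 115% of the parental level.

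Areg encodes amphiregulin, a ligand of EGFR alone. The gene lies at chr5:91139599-91148432 on the plus strand (GRCm38, the build named mm10 in the submitters' notes). Its normalized counts in parental cells were 1780 in line #3, 1988 in #4, 2492 in #6, 855 in #7, 215 in #9 and 1715 in #10. In resistant cells they were 6.21, 2.71, 33.6, 70.3, 0 and 14.2 in the same order. Every resistant sample was below every parental sample, which held for 3.16% of all genes tested. Areg was lower in 6 of 6 lines, with a log2 fold change of -6.89 (SE 1.06, n = 6 lines per state, limma adjusted p = 0.000331). Of all genes tested 5.3% were called in this comparison and 2.73% were called lower. The resistant cells kept 0.349% of the parental level in line #3, 1.35% in #6, 8.22% in #7 and 0.827% in #10. Line #9, whose resistant sample was listed at 0, kept at most 1.75% (3 reads), and the resistant sample of line #4 was under the value of 3 reads as well. Without line #9, the line with the lowest parental counts of Cdh1 and Krt8, the log2 fold change was -6.72 (adjusted p = 0.000715).

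The 250 bases before the start of Areg (RefSeq, GRCm38.p6, chr5:91139349-91139598, plus strand) are shown because Areg had the largest log2 fold change of the ligands and because its immediate upstream sequence holds a cAMP response element, the site of CREB and ATF factors. Capitals mark this element (TGACGTCA, 61 to 54 bases before the start) and a TATA box (TATAAA, from 31 to 26 bases before it).
Areg: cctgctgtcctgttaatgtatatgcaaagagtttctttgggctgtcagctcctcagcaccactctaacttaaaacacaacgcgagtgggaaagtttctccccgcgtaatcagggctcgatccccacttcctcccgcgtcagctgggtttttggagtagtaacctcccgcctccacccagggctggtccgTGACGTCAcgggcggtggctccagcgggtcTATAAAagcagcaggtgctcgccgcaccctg
Btc, shown as a neighbour of Areg in the same gene cluster (not called, like Ereg and Epgn; chr5:91402995-91403244, minus strand), and Tgfa, shown as the ligand on another chromosome with the next largest estimate (chr6:86194972-86195221, plus strand), have neither motif in the same window.
Btc: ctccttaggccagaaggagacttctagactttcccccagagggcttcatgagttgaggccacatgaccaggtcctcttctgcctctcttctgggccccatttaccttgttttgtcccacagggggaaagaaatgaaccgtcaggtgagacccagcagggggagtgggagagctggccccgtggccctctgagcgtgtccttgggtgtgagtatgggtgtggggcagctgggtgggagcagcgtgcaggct
Tgfa: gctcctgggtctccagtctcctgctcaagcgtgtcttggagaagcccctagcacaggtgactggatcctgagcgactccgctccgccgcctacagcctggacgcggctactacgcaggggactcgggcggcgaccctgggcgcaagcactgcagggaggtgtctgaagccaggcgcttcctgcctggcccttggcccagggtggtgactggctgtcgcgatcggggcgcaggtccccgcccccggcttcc
Both strands were searched for 4 motifs, and the palindrome TGACGTCA was counted once. The AP1 motif TGAGTCA was in none of the 6 start sites found for 5 of the 8 ligands (Areg, Btc, Egf, Epgn and Tgfa), and it was in 4.46% of 32851 mouse promoters of the same length. TGACGTCA was in 1.55% of all promoters, TATAAA in 12.4% and both in 0.119%. TATAAA was also found 86 to 81 bases before the start of Epgn, and the ETS motif CCGGAA, present in 12% of all promoters, in the window of the other Egf start site. The letters are a description of these windows and were not tested for binding.

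Hbegf encodes heparin-binding EGF-like growth factor. It was the most abundant ligand of parental cells per kb of transcript in 5 of 6 lines. Its normalized counts in parental cells were 4483 in line #3, 4864 in #4, 4869 in #6, 4037 in #7, 2098 in #9 and 6696 in #10, and in resistant cells 200.1, 657, 636, 2348, 683 and 2842. Hbegf was lower in resistant cells in 6 of 6 lines, as were Areg and Tgfa, so 3 of 8 ligands did so against 9.49% of all genes tested. The ranges of the states overlapped, since the resistant samples of lines #7 and #10 were above the parental sample of line #9. Hbegf had a log2 fold change of -2.32 (SE 0.61, adjusted p = 0.0142), which missed the threshold. A fit with the line as a block gave it an adjusted p of 0.00109. In that blocked fit 10.5% of all genes were called and 5.6% were called lower, as were 3 of 8 ligands.

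Tgfa, transforming growth factor alpha (chr6:86195223-86275719, plus strand), split the lines more sharply. Its parental normalized counts were 2300 in line #3, 3153 in #4, 2468 in #6, 2470 in #7, 123 in #9 and 2373 in #10. In resistant cells they were 8.76, 52.7, 59.6, 1353, 99.5 and 887. Lines #3, #4 and #6 kept 0.381%, 1.67% and 2.41% of the parental level, and lines #7, #9 and #10 kept 54.8%, 80.8% and 37.4%. For Tgfa it was -3.62 on the log2 scale (SE 1.19, adjusted p = 0.0453), and the blocked fit gave an adjusted p of 0.00370. Parental cells of line #9 had the lowest parental value and the resistant samples of lines #7 and #10 lay above it, so the states overlapped.

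Ereg, Epgn and Btc are neighbours of Areg on chromosome 5, where the 4 genes span 375.5 kb. Ereg (chr5:91074622-91093646, plus strand) encodes epiregulin. Its normalized counts in parental cells were 2068 in line #3, 2627 in #4, 1691 in #6, 733 in #7, 614 in #9 and 935 in #10. In resistant cells they were 350, 151, 1639, 1583, 3.75 and 15.9. Ereg was nearly lost in lines #9, where its value was no higher than that of 3 reads, and #10, lower by a log2 difference of -0.05 in line #6 and at 216% of the parental level in line #7. The log2 fold change of -3.07 (SE 1.15, adjusted p = 0.0772) was not called. Reads of the antisense gene Gm19610, which shares 152 bases with the start of Ereg, cannot be told apart from reads of Ereg there if the quantification did not use strand, which is not given in the sources used here. Gm19610 had 65.0 to 189 normalized counts in parental and 0 to 60.5 in resistant cells.

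Btc (chr5:91357261-91402994, minus strand) encodes betacellulin, which binds both EGFR and ERBB4. Its normalized counts in parental cells were 3085, 1456, 1942, 1229, 456 and 2281 in lines #3, #4, #6, #7, #9 and #10. In resistant cells they were 744, 1019, 5466, 801, 28.5 and 1540. Btc was thus 281% of the parental level in line #6 and 6.25% in line #9. Its log2 fold change of -1.03 (SE 0.97, adjusted p = 0.524) was within the spread between lines. Epgn, which encodes epigen (chr5:91027464-91035215, plus strand), had 5.15 to 11.6 normalized counts in parental cells. In resistant cells it was at or under 3 reads in 5 of 6 samples and at 18.8 in line #7, and its log2 fold change of -1.91 (SE 0.60, adjusted p = 0.0355) rests on few reads.

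**Figure D2:**
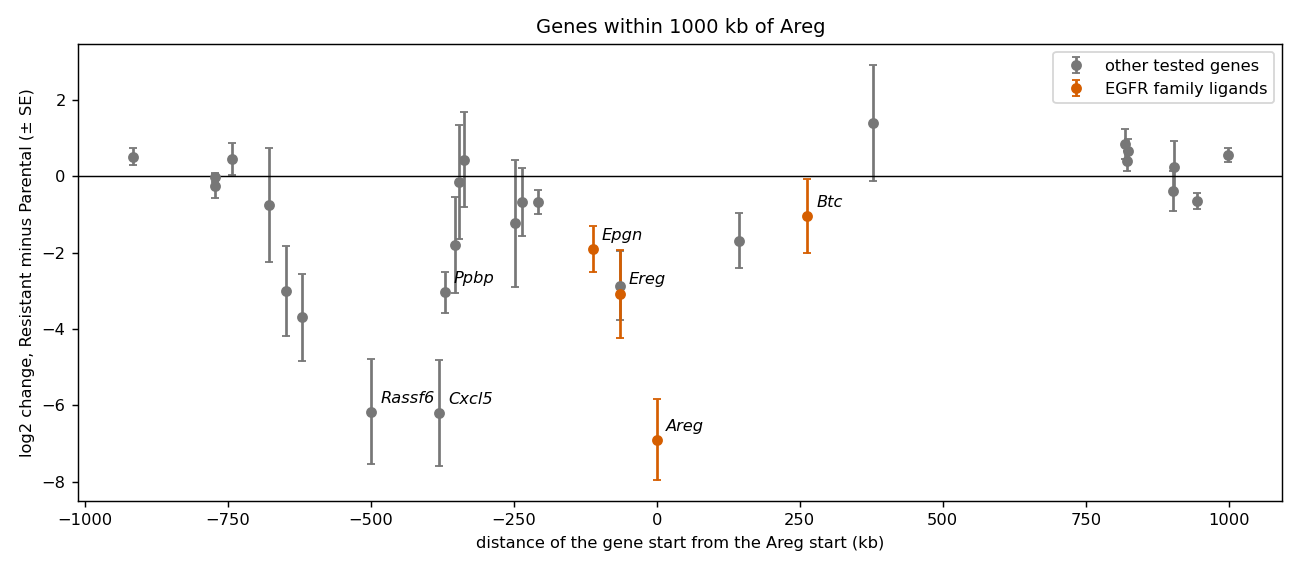
Log2 change between resistant and parental cells (y axis, bars are the SE of the limma fit) for the 30 tested genes that start within 1000 kb of the Areg start (x axis, distance in kb). Areg at -6.89 lies between Ereg at -3.07 and Btc at -1.03, and Cxcl5, Rassf6 and Ppbp are the other genes called without a block for the line.

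Of 9 listed neighbours of this ligand cluster, all past the filter on low values, 1 was called in resistant cells, where 5.3% of all genes were. Cxcl5, which encodes a chemokine that draws neutrophils, fell by 6.20 on the log2 scale (SE 1.38, adjusted p = 0.00541). The median change of the 9 was -0.15, against -0.00 over all genes. Cxcl3 had a log2 fold change of -1.80 (adjusted p = 0.371) and Parm1 of 1.39 (adjusted p = 0.597). The other neighbours, Mthfd2l, Cxcl15, Rchy1, Thap6, Cdkl2 and G3bp2, lay between -0.67 and 0.66. A window of 1000 kb to each side of the Areg start, set after the values were seen, held 26 other tested genes. Of these 3 were called, all lower, against 2.73% of all genes called lower. Besides Cxcl5 they were Rassf6 with a log2 fold change of -6.16 (adjusted p = 0.00529) and Ppbp, a platelet chemokine gene, with -3.04 (adjusted p = 0.00102). With the line as a block 5 were called, all lower, against 5.6% of all genes called lower. Afm (adjusted p = 0.00148) and Gm19610 (adjusted p = 0.00505) were the genes added by the block.

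Egf, the founding member of the family (chr3:129677565-129755316, minus strand), was higher in resistant cells in 6 of 6 lines, which held for 8.99% of all genes tested. Its normalized counts in parental cells were 111, 112, 89.3, 133, 107 and 197 in lines #3, #4, #6, #7, #9 and #10. In resistant cells they were 457, 116, 90.9, 153, 346 and 928. Lines #3, #9 and #10 were at 322% to 472% of the parental level, and lines #4, #6 and #7 at 102% to 115%. The log2 fold change of 1.03 (SE 0.46, adjusted p = 0.140) did not pass the test.

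Nrg1, neuregulin 1 (chr8:31814551-32884029, minus strand), activates ERBB3 and ERBB4 in place of EGFR. Its normalized counts in parental cells were 1354, 1862, 1060, 331, 310 and 879 in lines #3, #4, #6, #7, #9 and #10. In resistant cells they were 11.7, 340, 943, 808, 378 and 791. Line #3 lost nearly all of it, to 0.864% of the parental level, and line #7 had 244%. The log2 fold change of -1.32 (SE 0.89, adjusted p = 0.350) did not exceed the spread between lines, and it was -0.24 without line #3. Of the other neuregulins, Nrg2 and Nrg4 were tested and 0 were called (0 at an unadjusted p below 0.05), with log2 fold changes of -1.48 (adjusted p = 0.311) and -1.07 (adjusted p = 0.353), and Nrg3 stood at or under 3 reads in all samples. In the comparison of resistant and parental cells 6 of 8 ligands had an unadjusted p below 0.05 (limma). So had 5642 of the 19300 genes tested. Of these 6 ligands Egf had an estimate above 0, and Areg, Ereg, Epgn, Hbegf and Tgfa had estimates below 0.

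**Figure D3:**
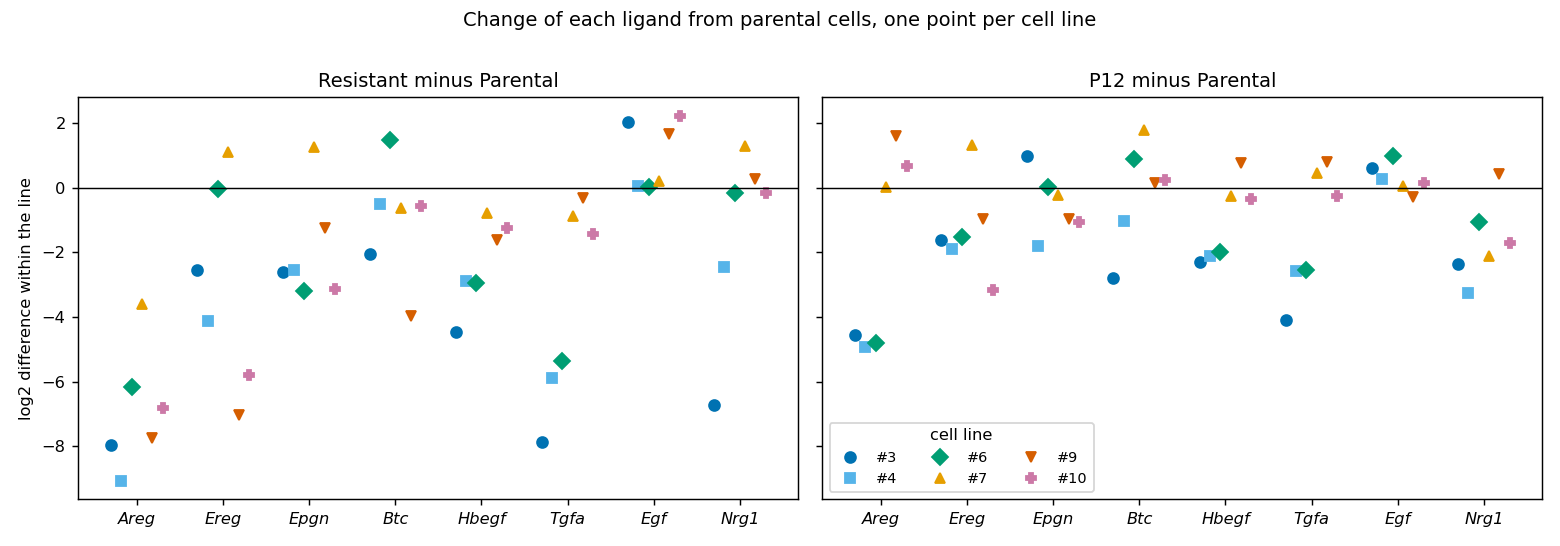
Log2 difference from the parental sample of the same line (y axis) for each ligand (x axis), in resistant cells on the left and P12 cells on the right, with 1 point per cell line. In P12 the points of lines #3, #4 and #6 for Areg lie between -4.94 and -4.57 and those of lines #7, #9 and #10 between 0.01 and 1.59.

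The next comparison asks how far the ligands came back without the drug. In P12 cells Areg had 74.2 normalized counts in line #3, 64.0 in #4, 87.5 in #6, 862 in #7, 651 in #9 and 2732 in #10. It was higher than in resistant cells in 6 of 6 lines, although the lowest P12 samples (lines #4 and #3) were close to the highest resistant sample (line #7, 70.3) and the ranges overlapped. The log2 fold change was 4.88 (SE 1.06, adjusted p = 0.00859). Of all genes tested 2.13% were called in this comparison, 1.28% as higher, and 1 of 8 ligands was. The call stood close to the threshold: leaving out any of the 6 lines gave adjusted p values from 0.0136 (without line #6) to 0.0441 (without line #10), and leaving out line #9 lowered the log2 fold change most, to 3.99.

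Hbegf and Tgfa were also higher in P12 than in resistant cells in 6 of 6 lines, as 7.77% of all genes were. Hbegf had 921, 1118, 1221, 3418, 3580 and 5239 normalized counts in P12 of lines #3, #4, #6, #7, #9 and #10, with a log2 fold change of 1.29 (SE 0.61, adjusted p = 0.244). Tgfa had 134, 526, 425, 3365, 213 and 1969, with a log2 fold change of 2.24 (SE 1.19, adjusted p = 0.317). Neither passed the test. Ereg had a log2 fold change of 1.76 (adjusted p = 0.436), Epgn of 1.41 (adjusted p = 0.188), Btc of 0.91 (adjusted p = 0.673), Nrg1 of -0.36 (adjusted p = 0.880) and Egf of -0.74 (adjusted p = 0.414). The median over the 8 ligands was 1.35, against 0.02 over all genes.

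P12 cells were then set against the parental cells, with which they share the growth without drug. No ligand was called (0 of 8, with 0 at an unadjusted p below 0.05), and 0.114% of all genes were. The spread between lines was wide: Areg had a log2 fold change of -2.01 (SE 1.06, adjusted p = 0.377) that averaged 3 lines below and 3 lines above the parental level. Areg in P12 stood at 4.17% of the parental level in line #3, 3.22% in #4 and 3.51% in #6. It stood at 101% in line #7, 302% in #9 and 159% in #10. Relative to the parental level, Hbegf and Tgfa split the lines in the same places. Hbegf in P12 was at 20.6%, 23.0% and 25.1% of the parental level in lines #3, #4 and #6, and at 84.7%, 171% and 78.2% in lines #7, #9 and #10. Tgfa was at 5.81%, 16.7% and 17.2% in the former lines and at 136%, 173% and 83.0% in the latter. In line #9 Tgfa had only 123 normalized counts in parental and 213 in P12 cells. That P12 value was below those of lines #4 (526) and #6 (425). The lines were not grouped by any label, each value comes from 1 library, and the difference between lines was not tested.

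The remaining ligands varied in other ways. Ereg in P12 had 673, 713, 584, 1825, 316 and 103 normalized counts in lines #3, #4, #6, #7, #9 and #10, and was lowest against parental cells in line #10, at 11.0%, where Areg was above the parental level. Its log2 fold change against parental cells was -1.31 (adjusted p = 0.615). Btc had 442, 714, 3633, 4276, 501 and 2692, which was 14.3% of the parental level in line #3, 49.0% in #4, 187% in #6, 348% in #7, 110% in #9 and 118% in #10. Nrg1 had 264, 195, 512, 75.2, 416 and 267 and was below the parental level in 5 of 6 lines, line #9 being the exception, with a log2 fold change of -1.68 (SE 0.89, adjusted p = 0.380). Egf had 172, 137, 177, 137, 87.7 and 217. It was at 154%, 122% and 199% of the parental level in lines #3, #4 and #6 and at 103%, 81.6% and 110% in lines #7, #9 and #10. Epgn had 2.63 to 11.2.

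P5 cells of lines #3, #7 and #9 showed how early the levels had moved. Areg had 101.8, 913 and 579 normalized counts in P5 of these lines, all above the highest resistant sample, an arrangement that held for 3.02% of all genes. The log2 fold change against resistant cells was 5.24 (SE 1.30, adjusted p = 0.0381), which missed the threshold. No ligand was called (0 of 8, with Areg and Epgn at an unadjusted p below 0.05), against 0.378% of all genes, and 0.29% called as higher. Areg, Ereg, Hbegf and Tgfa were higher in P5 than in resistant cells in 3 of 3 lines, as were 15% of all genes. From P5 to P12 Areg changed by -0.45 in line #3, -0.08 in #7 and 0.17 in #9 on the log2 scale, and Hbegf by 0.26, -0.56 and 0.16. In line #3 both genes were low already in P5, with Areg at 5.72% and Hbegf at 17.2% of the parental level. Nrg1 had 36.3 in P5 of line #7, against 808 in its resistant sample, 136 in P5 of line #3 and 571 in line #9.

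**Figure D4:**
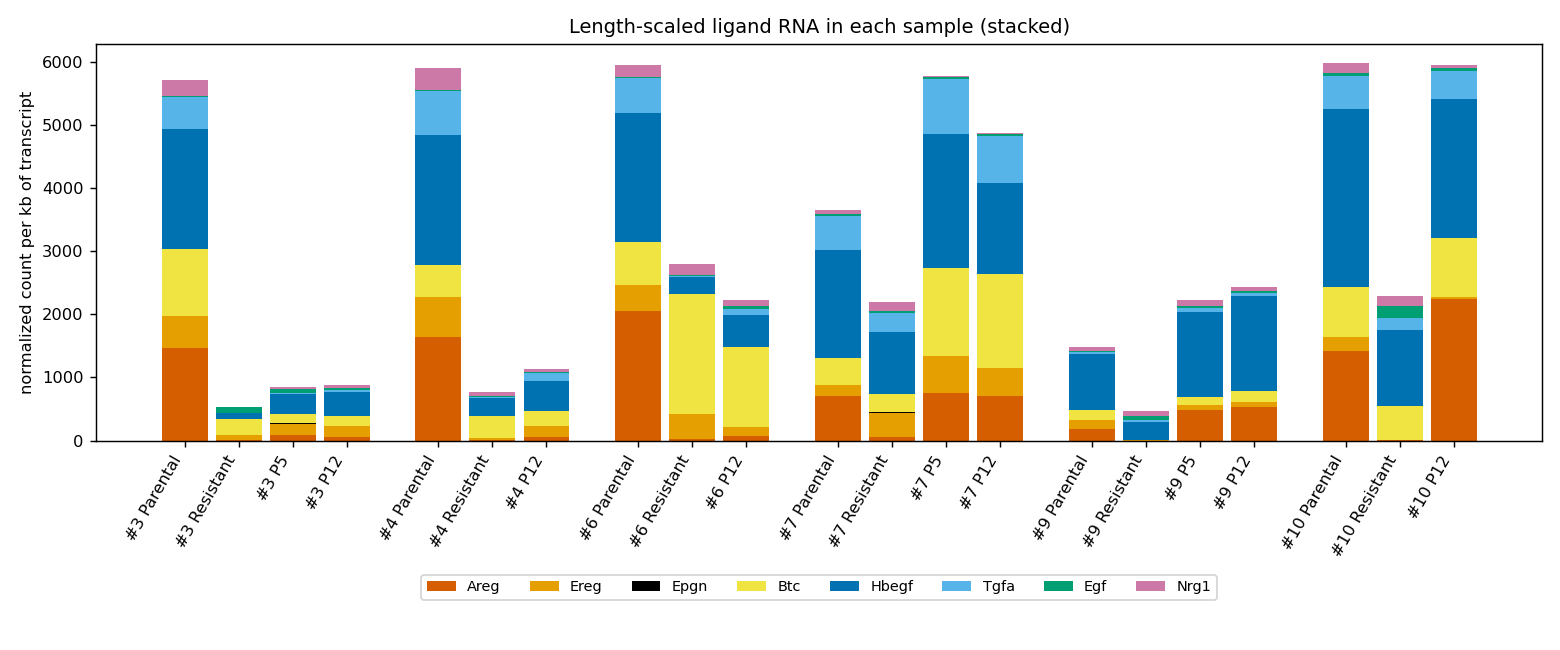
Stacked normalized counts per kb of the longest coding transcript (y axis) of the 8 ligands in each of the 21 samples (x axis, grouped by cell line). The stack shrinks in resistant cells of every line and is rebuilt in P5 or P12 of lines #7, #9 and #10. In P12 of lines #3, #4 and #6 it stands at 15.5%, 19.1% and 37.3% of the parental height. For line #6 this is below its resistant sample, at 47.0%.

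Levels of different ligands were compared per kb of transcript, using the longest coding transcript of each gene. On this scale the summed ligand RNA of parental cells was 5711 in line #3, 5897 in #4, 5950 in #6, 3647 in #7, 1480 in #9 and 5983 in #10. In resistant cells it was 9.33%, 13.0%, 47.0%, 60.3%, 31.4% and 38.2% of that, and in P12 cells 15.5%, 19.1%, 37.3%, 133%, 165% and 99.4%. Hbegf made up a median 40.7% (33.1% to 59.7%) of the sum in parental cells and 40.5% (9.56% to 61.9%) in resistant cells. It ranked first in 5 and 3 of 6 samples. Areg made up a median 24.6% in parental, 0.735% in resistant and 10.7% in P12 cells. Btc made up a median 11.5% of the sum in parental and 34.8% in resistant cells, where it ranked first in 3 of 6 samples. In line #6 Btc reached 1900 per kb, which was 67.9% of the ligand RNA of its resistant cells. Egf and Nrg1 contributed a median 0.550% and 3.58% in parental cells and 5.84% and 6.59% in resistant cells.

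The receptors were not called in any of the comparisons (limma, 0 of the 3 tested, Egfr, Erbb2 and Erbb3, with or without the block). Erbb2 in resistant against parental cells was the only case with an unadjusted p below 0.05. Egfr, the receptor of most of these ligands, had in parental cells 1242 normalized counts in line #3, 3923 in #4, 2530 in #6, 1477 in #7, 8753 in #9 and 1318 in #10. In resistant cells it had 9192, 8594, 8417, 3384, 23.5 and 1784. It was thus higher in 5 of 6 lines and nearly lost in line #9, and the log2 fold change of -0.18 (SE 1.45, adjusted p = 0.954) averages these opposite differences. In P12 it had 6287, 15473, 9742, 1916, 125 and 1355 in lines #3, #4, #6, #7, #9 and #10, above the parental value in 5 of 6 lines, line #9 being the exception. In line #9 Areg and Hbegf were thus above the parental level in P5 and P12, where Egfr stood at 45.8 and 125.

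Erbb2, the partner receptor, ranged from 2285 to 5576 normalized counts in parental and 1797 to 4249 in resistant cells, with a log2 fold change of -0.74 (SE 0.31, adjusted p = 0.110). Erbb3, which binds neuregulins, ranged from 100.4 to 2524 in parental and 2.50 to 1777 in resistant cells (log2 fold change -1.49, SE 1.19, adjusted p = 0.444). In line #9 it went from 100.4 to 2.50 and then to 336 in P12. Erbb4 did not pass the filter on low values and was at or under 3 reads in 5 of 6 parental samples, its highest values being 105 in P12 of line #9 and 25.1 in resistant cells of line #3. Against resistant cells the P12 changes were 0.28 for Egfr (adjusted p = 0.948), 0.31 for Erbb2 (adjusted p = 0.649) and 0.51 for Erbb3 (adjusted p = 0.870). P12 differed from parental cells by 0.09 for Egfr (adjusted p = 0.985), -0.43 for Erbb2 (adjusted p = 0.516) and -0.97 for Erbb3 (adjusted p = 0.726). P5 differed from resistant cells by -1.06 for Egfr (adjusted p = 0.821), 0.19 for Erbb2 (adjusted p = 0.853) and 0.29 for Erbb3 (adjusted p = 0.948).

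Of 12 genes for ligand sheddases and their partners, 3 were called in resistant cells, where 5.3% of all genes were. Rhbdf2, which encodes iRhom2, a carrier of the protease ADAM17, rose by 1.86 (SE 0.41, adjusted p = 0.00532). Furin, a protease that matures ADAM precursors, fell by 1.64 on the log2 scale (SE 0.39, adjusted p = 0.00899), and Adam9 fell by 1.50 (SE 0.33, adjusted p = 0.00499). Adam17 and Adam10, the main sheddases, had log2 fold changes of 0.30 (adjusted p = 0.416) and 1.08 (adjusted p = 0.0191). The list's median was 0.29, against -0.00 over all genes. In P12 against resistant cells none of the 12 was called, where 2.13% of all genes were (with the cell line as a block Adam9 was, adjusted p = 0.00858). An unadjusted p below 0.05 was found there for 3 of the 12 and for 3821 of the 19300 genes tested.

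Of 10 ERBB inhibitors, 1 was called in resistant cells, where 5.3% of all genes were. The same gene was called in P12 against resistant cells, where 2.13% of all genes were. Errfi1 encodes MIG6, which binds the EGFR kinase domain and is itself known to be induced by EGFR signalling. It fell by 3.01 on the log2 scale in resistant cells (SE 0.41, adjusted p = 0.000111) and rose by 2.05 in P12 (adjusted p = 0.00481), where the block added Socs5 as higher (adjusted p = 0.00508). In P12 it stood at 1973, 1932 and 2253 normalized counts in lines #3, #4 and #6, below their parental 10368, 5345 and 5757. Of 10 ERBB adaptors 1 was called in resistant cells, again against 5.3% of all genes. Gab1, a docking protein of receptor tyrosine kinases, rose by 2.76 in resistant cells (SE 0.47, adjusted p = 0.000771). Grb7, an adaptor of ERBB2, had a log2 fold change of -4.42 (adjusted p = 0.208), which was called lower with the cell line as a block (adjusted p = 0.00909). In P12 against resistant cells Gab1 had a log2 fold change of -1.85 (adjusted p = 0.0227), called only with the block (adjusted p = 0.00617). Of the sheddases, inhibitors and adaptors 0 were called between P12 and parental cells and 0 between P5 and resistant cells. The shares over all genes were 0.114% and 0.378%. In the former comparison 1, 2 and 2 of them had an unadjusted p below 0.05, as had 2953 of the 19300 genes tested. In the latter 2, 3 and 3 had one, as had 2976 of all genes.

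The ligands were then compared with 13 genes known as output of ERK signalling, among them Dusp6, Spry4 and Etv4. Of these 11 were called lower in resistant cells, where 2.73% of all genes were. In P12 and P5 against resistant cells 10 and 9 were called higher, where 1.28% and 0.29% of all genes were. Between P12 and parental cells 0 were called. An unadjusted p below 0.05 was found there for 4 of the 13 and for 2953 of the 19300 genes tested. With the line as a block 12 fell in resistant cells and 12 rose in P12, the added genes being Dusp5 in both and Ccnd1 in P12. The largest falls were those of Etv4, an ETS transcription factor gene (log2 fold change -10.46, adjusted p = 5.09e-13), and Spry4, a feedback inhibitor (-8.27, adjusted p = 9.57e-11). The list's median in resistant cells was -5.81, against -2.12 for the ligands. Within the lines, the median of the ERK output genes in P12 against parental cells was 0.06 in line #3, 0.14 in #4, 0.01 in #6, 0.53 in #7, -0.03 in #9 and 0.00 in #10. The median of the ligands was -2.32, -2.00, -1.29, 0.03, 0.28 and -0.31 in the same lines, and over all genes it lay between -0.02 and 0.03. In lines #3, #4 and #6 the median of the ERK output genes was near the parental level and that of the ligands below it. Members of both lists went either way. In the fit over all lines, the P12 estimates of the ERK output genes against parental cells ranged from -0.98 for Fosl1 to 1.20 for Egr1. In line #3, 7 of the 13 ERK output genes were above and 6 below the parental level, 4 of them by more than 1 on the log2 scale, and 2 of 8 ligands were above it. In line #6, 3 of 8 ligands were above it. Dusp6 is an ERK phosphatase gene often used as a readout of the pathway. It had 9309 normalized counts in parental and 9725 in P12 cells of line #3, 5650 and 5098 in #4, and 5497 and 5523 in #6. The part of ERK signalling in the ligand levels was not tested.

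**Figure D5:**
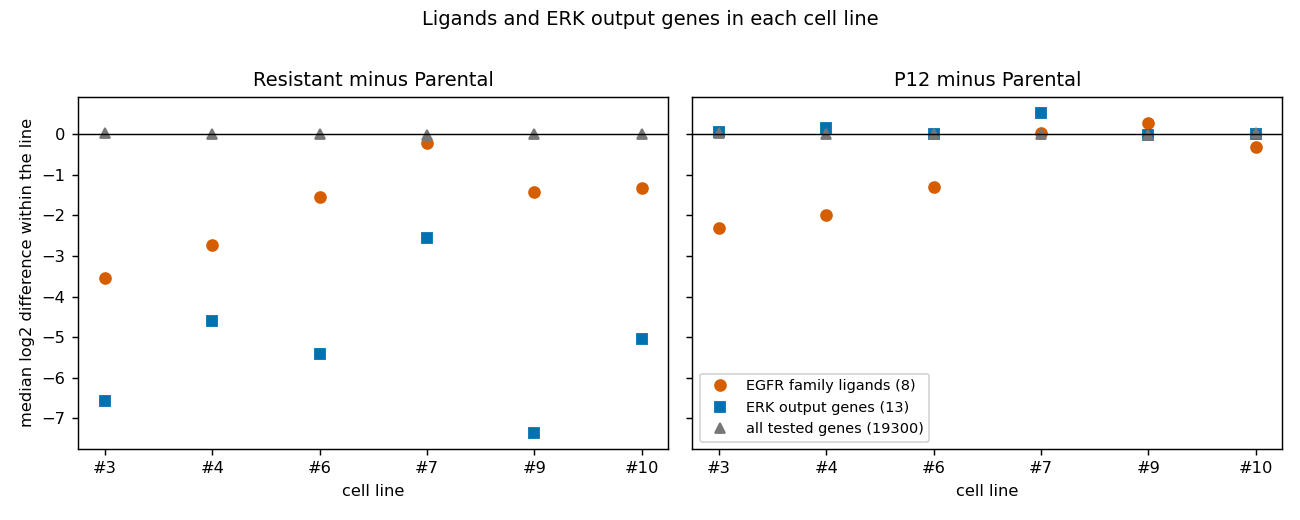
Median log2 difference from the parental sample of the same line (y axis) over the 8 ligands, the 13 ERK output genes and all 19300 tested genes in each cell line (x axis), for resistant cells on the left and P12 cells on the right. Both lists are below 0 in resistant cells of all 6 lines, and in P12 of lines #3, #4 and #6 the ligands stay at -2.32 to -1.29 while the ERK output genes are at 0.01 to 0.14.

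The level of Cdh1, the epithelial cadherin gene, is given beside this split. Cdh1 in P12 was 2808, 992 and 1516 normalized counts in lines #3, #4 and #6, against 27906, 36777 and 26491 in parental cells. It was 18598 and 14006 in P12 of lines #7 and #10, against 53229 and 32192, and 44.0 against 816 in line #9. In P12 of line #9 Areg, Hbegf and Tgfa were above the parental level. Against parental cells the P12 estimates were -3.26 for Cdh1, -1.65 for Krt8, -2.11 for Krt18, -2.01 for Krt19 and 0.78 for Sox9. None of these markers was called. The part of these markers in the ligand levels was not tested.

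Pearson's r over the 21 samples, after the mean of each line was removed, described which genes had the pattern most like each ligand. These samples share the lines and the states, so a high r is a description. For Areg the 3 genes were Kcnn4 (0.97), Rasa2 (0.96) and Plek2 (0.96), and Hbegf (0.90) ranked 39 among the other tested genes. Kcnn4 encodes a calcium-activated potassium channel, Rasa2 a GTPase-activating protein for RAS and Plek2 pleckstrin 2. For Hbegf they were P2ry2, Mtmr10 and 2200002D01Rik (all 0.95). For Tgfa, Hbegf itself was the second gene (0.94), between Fam185a and Slc25a24 (both 0.94). Ereg was nearest to its antisense neighbour Gm19610 (0.94), followed by Prpf8 (0.90) and Ruvbl1 (0.90). Btc was nearest to Yes1 (0.87), Pls3 (0.86) and Chn2 (0.84), and Nrg1 to Nln (0.89), Usp46 (0.87) and Rpusd2 (0.86). Egf was nearest to Gm42979 (0.90), A630035G10Rik (0.89) and Pcdhb14 (0.87), and its r with Areg was -0.78. The nearest genes to Epgn were 2610035D17Rik (0.88), Fam129b (0.86) and Cdc14a (0.85).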

How the data were processed

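RNA of 21 samples from 6 murine PDAC lines in 4 states was analysed. A further allele shared by all lines is not reported here. Total RNA was prepared with the TruSeq Stranded mRNA kit from 100 ng. The authors trimmed reads with Skewer, quantified transcripts with salmon 0.12 and converted them to gene level with TXImport. The authors deposited signal values, which are counts per gene normalized by the authors with DESeq2 1.18 (mm10). Raw counts could not be recovered: 61.5% to 75.9% of the low values lay within 0.05 of a whole number of reads. The authors named more than 1 sequencer without assigning samples, so no within-batch values are given.

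Genes that reached 10 in 3 or more samples (19300 of 34478) were tested on log2(value + 1) with limma 3.58.1 (R 4.3.3) in a fit of all 21 samples with a trend and no covariate. Calls needed a log2 fold change beyond 1 in either direction and a Benjamini-Hochberg adjusted p under 0.01. P-values of this fit set a change against the spread between lines within a state, pooled over the 4 states and moderated across genes. They do not use the pairing by line. The line numbers pair the samples, since same-numbered samples come from the same cell line. Their deviations from the state means correlated by 0.00819 to 0.537 (21 pairs). On simulated data for resistant against parental cells with 18552 genes, 80 of 100 genes changed by a log2 of 2 and 90 of 100 changed by 4 were recovered, with 1 false call. The simulated noise was independent between samples and held no line effect, unlike the real samples. Genes with low means were not among the changed ones, so recovery of low genes was not measured.

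The members and lists were chosen with earlier results of these data known. Named genes are all 8 ligands, the receptors, up to 2 rises and 2 falls called per list, the neighbours and the 3 genes most like each ligand. Positions and lengths are from GENCODE M21 (GRCm38), promoters from RefSeq (GRCm38.p6), which matched 5 of 8 ligands. Python 3.11.15, numpy 2.4.6, pandas 2.3.3 and matplotlib 3.10.9 were used. Alternatives were pseudocounts of 0.5 and 8, no filter, a mean of at least 100, upper-quartile scaling, the cell line as a block, no trend, an adjusted p below 0.05, the compared states alone and each line left out.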

Additional observations from a re-analysis of the deposited data

Results flagged for a closer look

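Sets of 6 values on the log2 scale were taken over the lines for the 8 ligands and 3 receptors, by state and by difference between states. Of 66 sets 7 held a value whose gap to its neighbour was large against the whole range (Dixon's test). Chance gives about 1 in 20 independent sets, but these sets share samples, so the rates are not directly comparable. Tgfa in parental cells of line #9 was far below the other 5 lines, at 123.165 normalized counts. Nrg1 in resistant cells of line #3 was far below the others at 11.7013. The other 5 concerned receptors of line #9. Egfr in its resistant cells stood at 23.5382 normalized counts, its log2 difference was -8.47873 between resistant and parental cells and -6.11835 between P12 and parental cells, Erbb2 in its parental cells stood at 2285.12 and Erbb3 in its resistant cells at 2.49798, under the value of 3 reads.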

How the results depend on the processing

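Of 460 alternative estimates of the ligands' log2 fold changes, 438 kept their direction and their side of the threshold, 10 lost a call, 6 gained one and 6 turned sign without a call. The turned estimates were those of Btc in P12 against parental cells (-0.51 to 0.41 over the fits without 1 line) and in P5 against resistant cells (-0.88 to 0.79), and of Nrg1 in P12 (-1.30 to 0.25) and P5 (-2.09 to 0.10) against resistant cells. All 10 lost calls were those of Areg in P12 against resistant cells, where 0 ligands were called with a pseudocount of 8 (adjusted p = 0.0135), without a filter (0.0126), without a trend (0.0110), with the compared states alone (0.0458) and without any 1 of the 6 lines (0.0136 to 0.0441). Over all alternatives its adjusted p ranged from 0.00415, with the block, where the call was kept, to 0.0458. The cause was not tested.

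With the pairing of the lines as a replicate block, 2017 genes and 3 ligands were called between resistant and parental cells, 872 genes and 1 ligand between P12 and resistant, 101 genes and 0 ligands between P12 and parental, and 118 genes and 0 ligands between P5 and resistant cells. The block changed no other ligand's call. At an adjusted p below 0.05 these comparisons had 2190, 947, 116 and 376 genes. Ligands called there were 4 (Areg, Epgn, Hbegf and Tgfa) in the first, 1 (Areg) in the second, 0 in the third and 1 (Areg) in the last. With the compared states alone, 103, 12 and 14 genes were called in the last 3 comparisons, and with a mean of at least 100, 5 genes between P12 and parental cells. Without 1 line each, 450 to 1237, 132 to 467, 4 to 68 and 23 to 48 genes were called, and the number of ligands called was 1, 0, 0 and 0. Depth limits Epgn, which stood at a few reads, Areg in 2 resistant samples and Ereg in the resistant sample of line #9.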
